A study of Mus musculus with 12 samples.

Results

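Solute carriers are the membrane proteins, named Slc and numbered by family, that move sugars, amino acids, vitamins, ions and other small molecules across cell membranes. The 121 genes described here are the Slc genes that reached 5 TPM in 3 or more libraries, without the families Slc25 (mitochondrial carriers), Slc30 and Slc39 (zinc transporters) and without 25 named genes of the classical absorption and ion pathways, such as Slc5a1, Slc2a5 and Slc9a3. They come from 55421 listed genes, of which 380 carry an Slc name. Of the 282 Slc genes that the names admit, 161 lay under the TPM bound. Just inside the bound, by their third-highest library, were Slc44a2 (5.15 TPM) and Slc7a5 (5.37 TPM). Just outside it were Slc22a13b (4.9 TPM) and Slc8b1 (4.34 TPM). TPM is transcript abundance per transcript length, scaled to the same total in every library, so levels of different genes can be compared. The bound alone, a level and no difference between groups, chose the members among the eligible names. Of the 121, 105 reached 5 TPM in every library and 16 in some libraries, so that some of these 16 may have passed through the group where they are high.

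RNA was sequenced in bulk from intestinal epithelial cells of the jejunum of mice. Fzd5 encodes the Wnt receptor Frizzled 5, and libraries labelled Fzd5KO were compared with libraries labelled Ctrl, each at day 1 and at day 3. The 4 groups were Fzd5KO day 1, Ctrl day 1, Fzd5KO day 3 and Ctrl day 3, with 3 libraries each, and the labels give a group no further allele, driver, agent, strain or age. They do not say which event the days were counted from, nor whether replicates are separate animals. The p-values therefore rest on the spread between libraries, and this spread may be technical.

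In the small intestine, carriers of the brush border take up nutrients from the lumen, often driven by the sodium or proton gradient, and other carriers of the basolateral membrane pass them on to the blood. The sodium pump keeps up the sodium gradient, and sodium/proton exchangers acidify the surface of the cell. Carriers inside the cell serve lysosomes, secretory vesicles and, in the Slc35 family, the supply of nucleotide sugars for glycosylation in the Golgi. Many absorptive carriers are known to increase as cells leave the crypt and mature along the villus.

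Fzd5 lay between 31.9 and 33.1 TPM in Fzd5KO day 1, against 43.5 to 49.4 TPM in Ctrl day 1, and between 37.8 and 39.7 TPM in Fzd5KO day 3, against 60.5 to 68.2 TPM in Ctrl day 3. The labels do not give the deleted part of the gene. Markers of the labelled tissue were abundant, with pan-epithelial markers summing to 7160 to 7349 TPM in Fzd5KO day 1, against 6921 to 7133 TPM in Ctrl day 1, and to 9869 to 10070 TPM in Fzd5KO day 3, against 7132 to 7362 TPM in Ctrl day 3. The enterocyte markers summed to 31280 to 32230 TPM in Fzd5KO day 1, 28550 to 29900 TPM in Ctrl day 1, 50860 to 52800 TPM in Fzd5KO day 3 and 23560 to 24900 TPM in Ctrl day 3. Depth is unknown, since TPM keeps none. Ctrl day 1 replicate 1 stood apart from the other libraries of its group on the third principal component (-34.5 against -13.9 and -8.54). Its removal moved no member count of a genotype comparison by over 1.5 times. The median of all 14510 tested genes was -0.14 at day 1 and -0.14 at day 3 on the log2 scale, and quantile normalization put it at 0.00 and -0.04, median-of-ratios scaling at 0.00 and -0.02, and rescaled TPM at -0.04 and -0.22.

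More carriers were lower than higher in the knockout at day 1, and more were higher than lower at day 3. Their summed level was 4585 ± 22 TPM in Fzd5KO day 1 and 5292 ± 135 TPM in Ctrl day 1, and 7154 ± 157 TPM in Fzd5KO day 3 and 4605 ± 143 TPM in Ctrl day 3 (mean ± SD, n = 3 libraries each). The day 3 difference lay both in the most abundant genes and in the rest. The 10 highest members summed to 2849 ± 66.6 TPM in Fzd5KO day 3 and 1508 ± 58.7 TPM in Ctrl day 3. The other 111 summed to 4305 ± 92.2 TPM in Fzd5KO day 3 and 3097 ± 85.8 TPM in Ctrl day 3. Fzd5KO day 3 held the highest group mean of 66 members, and Fzd5KO day 1 of 0. Fzd5KO day 1 held the lowest group mean of 63 members. In bulk samples, more or fewer cells of a type and more or less RNA per cell cannot be told apart.

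Differences were tested on log2(TPM + 1) with limma over all tested genes, and a gene was called at a Benjamini-Hochberg adjusted p under 0.05. This scale understates the change of genes with low values. At day 1, 6 members were called higher and 49 lower in Fzd5KO, with a median of -0.17, close to the -0.14 of all genes. Of all tested genes, 2.13% were called higher and 22.8% lower in that comparison. Of the members, 4.96% were called higher and 40.5% lower. The split of 6 against 49 was 9 against 26 under quantile normalization, 10 against 25 under median-of-ratios scaling and 10 against 29 with rescaled TPM, so that the number of falls at day 1 depends on the scale. At day 3, 66 members were called higher and 29 lower, with a median of 0.30 against -0.14 over all genes. Background shares on that day were 24.3% higher and 38.5% lower, against 54.5% and 24% of the members. Among the 10181 genes of any name that reach the same TPM bound, 29.1% were called higher and 40.3% lower at day 3, and 2.71% and 27.3% at day 1. The 105 members at 5 TPM in every library gave 64 higher and 18 lower. The libraries did not overlap for 69 members that lay higher and 33 that lay lower in Fzd5KO day 3. Overlap was not counted over all tested genes, so these numbers have no background share and say nothing particular about carriers.

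**Figure D1:**
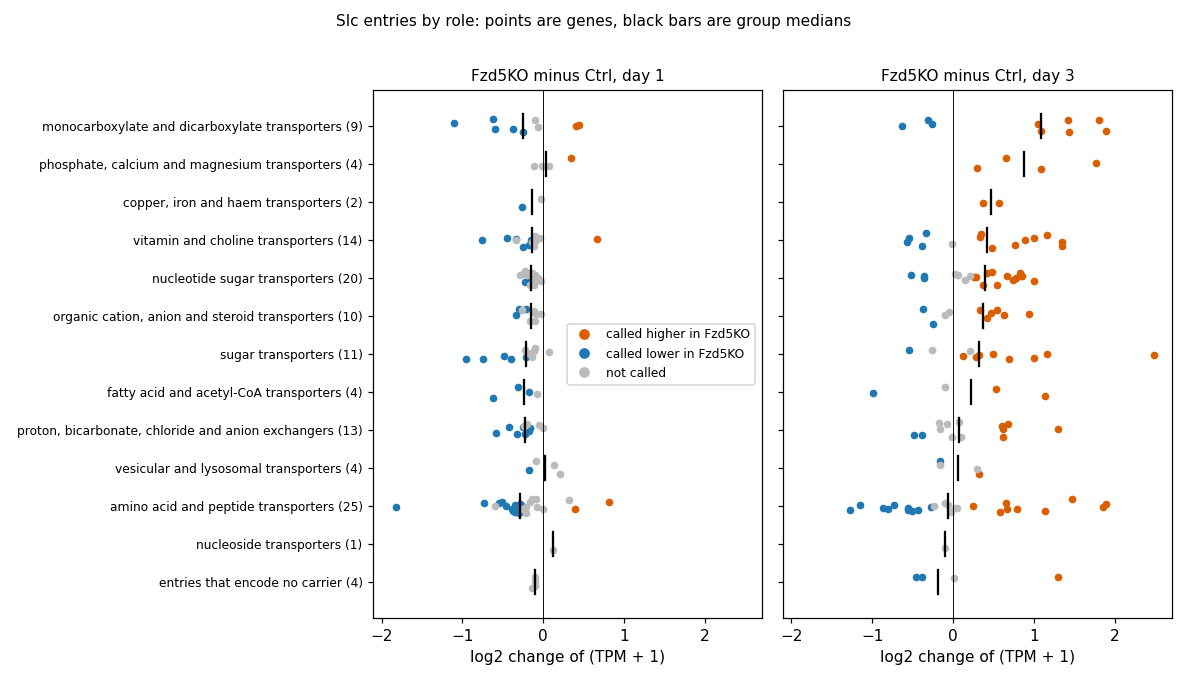
Log2 change of (TPM + 1), Fzd5KO minus Ctrl, of each of the 121 Slc entries at day 1 (left) and day 3 (right), by role, with the number of entries in brackets. Points are genes coloured by call, black bars are medians of a role, and the roles are in the order of their day 3 medians, from 1.08 for the monocarboxylate and dicarboxylate group downwards. At day 1 most called points lie left of 0, and at day 3 most lie right of it.

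The 3 carriers with the largest rises at day 3 were Slc2a7, Slc13a2 and Slc36a1. Slc2a7 encodes GLUT7, a facilitative hexose transporter, and lies at 150148972 to 150168482 on the plus strand of chromosome 4 (GRCm38, the assembly of mm10). It had 24.3, 24.3 and 22.6 TPM in Fzd5KO day 3, against 3.53, 3.32 and 3.46 TPM in Ctrl day 3. At day 1 it had 13.1, 13.4 and 16.3 TPM in Fzd5KO and 19.4, 18.7 and 18.7 TPM in Ctrl. The groups did not overlap on either day, and the order of the genotypes was opposite on the 2 days. The change at day 3 was 2.48 ± 0.074 (SE, log2, adjusted p = 2.74e-10) and that at day 1 was -0.39 ± 0.074 (adjusted p = 0.00381), a call lost under quantile normalization (-0.25) and median-of-ratios scaling (-0.24).

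Slc13a2 encodes NaDC1, the sodium/dicarboxylate cotransporter for citrate and succinate (chromosome 11, 78397087 to 78422217, minus strand). At day 3 it had 124, 133 and 126 TPM in Fzd5KO and 33.9, 35.9 and 31.1 TPM in Ctrl. Day 1 gave 59.6, 58 and 60.5 TPM in Fzd5KO and 90.7, 95.5 and 84.1 TPM in Ctrl. As for Slc2a7, every knockout library lay above every control library at day 3 and below it at day 1. The log2 changes were 1.90 ± 0.057 at day 3 (adjusted p = 2.89e-10) and -0.59 ± 0.057 at day 1 (adjusted p = 5.97e-05). Slc36a1 encodes PAT1, a proton-coupled carrier of small amino acids found in the brush border and in lysosomes (chromosome 11, 55204350 to 55236330, plus strand). Its day 3 values were 90.7, 94.1 and 89.9 TPM in Fzd5KO and 25.3, 25.6 and 21.1 TPM in Ctrl, and its day 1 values were 50.3, 51.2 and 53.5 TPM in Fzd5KO and 58.6, 65.3 and 55.7 TPM in Ctrl. The groups were far apart at day 3 (log2 change 1.90 ± 0.074, adjusted p = 2.15e-09), while at day 1 the knockout libraries lay just below the control libraries and the change of -0.21 ± 0.074 was not called (adjusted p = 0.0632).

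The promoters of these 3 genes are shown because all 3 genes rose at day 3, each from 250 bases before to 50 bases after the RefSeq start, 5′ to 3′ on the strand of the gene. Capitals mark the E-box CACGTG, a 6-base palindrome bound by basic helix-loop-helix factors.
Slc2a7, GRCm38.p6 chr4:150148637-150148936, plus strand: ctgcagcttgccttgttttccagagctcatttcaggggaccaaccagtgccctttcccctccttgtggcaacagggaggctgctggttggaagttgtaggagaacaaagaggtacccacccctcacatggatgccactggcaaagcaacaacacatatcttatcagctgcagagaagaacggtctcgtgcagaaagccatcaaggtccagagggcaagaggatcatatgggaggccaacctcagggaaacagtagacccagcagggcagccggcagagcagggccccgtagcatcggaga
Slc13a2, GRCm38.p6 chr11:78422185-78422484, minus strand: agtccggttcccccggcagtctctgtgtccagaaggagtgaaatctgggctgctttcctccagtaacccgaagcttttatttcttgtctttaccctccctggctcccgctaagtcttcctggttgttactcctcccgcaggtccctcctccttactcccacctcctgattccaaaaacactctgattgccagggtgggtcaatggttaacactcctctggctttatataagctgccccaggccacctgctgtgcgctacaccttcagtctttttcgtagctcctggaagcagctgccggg
Slc36a1, GRCm38.p6 chr11:55204090-55204389, plus strand: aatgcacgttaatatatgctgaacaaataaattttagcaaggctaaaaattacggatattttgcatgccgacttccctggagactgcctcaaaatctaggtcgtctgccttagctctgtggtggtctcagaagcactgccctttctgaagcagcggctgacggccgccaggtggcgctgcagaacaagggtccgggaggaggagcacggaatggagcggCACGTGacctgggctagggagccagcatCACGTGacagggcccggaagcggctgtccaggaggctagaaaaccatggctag
The promoter of Slc36a1 holds 2 E-boxes, which begin 31 and 3 bases before the start. The other two hold none, and none of the 3 holds the HNF4 motif CAAAGTCCA, the TCF/LEF motif CTTTGAT or the CDX motif CCATAAA on either strand. RefSeq gave promoters for 87 members, 113 in all. The E-box, chosen after these promoters were read, was in 12.4% of them and in 7.15% of the 32851 promoters of all genes. The TCF/LEF motif was in 5.31% of member promoters and 3.73% of all promoters, the CDX motif in 2.65% and 2.75%, and the HNF4 motif in 0 of 113 and in 0.475%. A match is a string of letters, and binding was not measured.

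**Figure D2:**
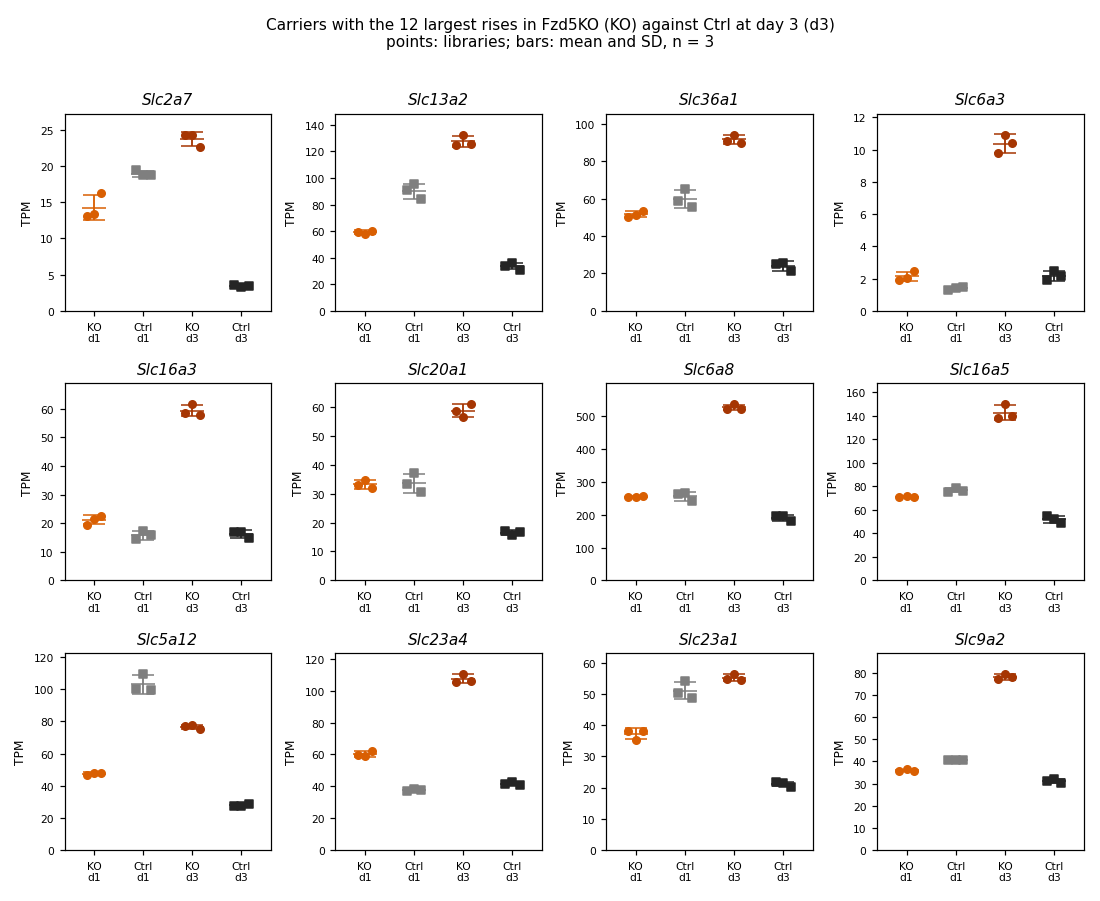
TPM of the 12 carriers with the largest rises in Fzd5KO (KO) against Ctrl at day 3 (d3), with day 1 (d1) beside it. Points are libraries and bars are the mean and SD of 3 libraries. In all 12 panels the knockout lies above the control at day 3, by the widest margin on the log2 scale for Slc2a7 (23.7 against 3.44 TPM), while at day 1 the order of the genotypes differs between genes.

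The monocarboxylate and dicarboxylate group was formed mainly by family and so takes in the sulfate carrier Slc13a1. The group had the highest median of the roles at day 3, 1.08 on the log2 scale, with 6 of 9 members higher and 3 lower. At day 1, 2 were higher and 5 lower, or 2 and 4 under each of the other scalings. Slc16a3 encodes MCT4, known for lactate export from glycolytic cells. It had 58.6, 61.5 and 57.9 TPM in Fzd5KO day 3, against 17.03, 17.1 and 14.7 TPM in Ctrl day 3, and 19.4, 21.6 and 22.5 TPM in Fzd5KO day 1, against 14.3, 17.3 and 15.7 TPM in Ctrl day 1. Knockout libraries were above control libraries on both days (log2 change 1.81 ± 0.079, adjusted p = 5.1e-09 at day 3 and log2 change 0.41 ± 0.079, adjusted p = 0.00459 at day 1). Slc16a6 encodes MCT7 and was likewise higher on both days, at 41.2 ± 1.68 TPM in Fzd5KO and 19.4 ± 0.77 TPM in Ctrl at day 3 (log2 change 1.05) and 22.7 ± 0.379 TPM in Fzd5KO and 16.5 ± 1.54 TPM in Ctrl at day 1 (log2 change 0.44). Slc16a6 overlaps Amz2 and Arsg on the opposite strand, and the sources used here do not give the strand setting of the counting. Slc16a5, which encodes MCT6, averaged 143 ± 6.24 TPM in Fzd5KO day 3 and 52.1 ± 2.83 TPM in Ctrl day 3 (log2 change 1.44), and was not called at day 1 (-0.11).

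Slc5a12 and Slc5a8 encode the sodium-coupled monocarboxylate transporters SMCT2 and SMCT1, which carry lactate and short-chain fatty acids. Slc5a12 had 46.6, 47.7 and 48.2 TPM in Fzd5KO day 1, against 100.1, 109.6 and 99.5 TPM in Ctrl day 1. By day 3 it had 76.9, 77.5 and 75.2 TPM in Fzd5KO and 27.4, 27.6 and 28.7 TPM in Ctrl. The control was the higher group at day 1 and the lower one at day 3, with no overlap on either day (log2 change -1.1 ± 0.042, adjusted p = 3.29e-08 at day 1 and log2 change 1.43 ± 0.042, adjusted p = 2.62e-10 at day 3). Slc5a8 showed the same order at lower levels, 8.25 ± 0.382 TPM in Fzd5KO and 13.3 ± 0.426 TPM in Ctrl at day 1 and 22.1 ± 0.416 TPM in Fzd5KO and 9.93 ± 0.232 TPM in Ctrl at day 3 (log2 changes -0.63 and 1.08). The 3 members of this role that fell at day 3 were Slc13a1, the sulfate carrier NaS1 (-0.63), Slc16a1, which encodes MCT1 (-0.26), and Slc16a13 (-0.31). The call of Slc16a13 was lost under quantile normalization (-0.06) and median-of-ratios scaling (-0.19). Slc13a1 had 33.6, 34.6 and 32.9 TPM in Fzd5KO day 3, against 53.9, 51.9 and 52.7 TPM in Ctrl day 3, and was lower in Fzd5KO at day 1 too (-0.37). It thus ran opposite to its family member Slc13a2 at day 3.

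Of the 11 sugar transporters, 8 were higher and 1 was lower at day 3, and 0 were higher and 5 lower at day 1. The 5 falls of day 1 were 3 under quantile normalization, 3 under median-of-ratios scaling and 4 with rescaled TPM. Slc5a4a and Slc5a4b encode the mouse SGLT3 proteins, relatives of the sodium/glucose cotransporter. Slc5a4a had 21.9, 22.6 and 23.5 TPM in Fzd5KO day 1, against 44.7, 45.7 and 44.1 TPM in Ctrl day 1, and 26.4, 27.7 and 25.4 TPM in Fzd5KO day 3, against 11.4, 11.6 and 11.1 TPM in Ctrl day 3. The knockout libraries lay below the control libraries at day 1 (log2 change -0.95) and above them at day 3 (log2 change 1.16). Day 3 lay above day 1 by 0.22 within Fzd5KO, while within Ctrl the log2 difference was -1.89. Slc5a4b averaged 46.7 ± 0.91 TPM in Fzd5KO and 78.8 ± 2.75 TPM in Ctrl at day 1 (log2 change -0.74) and 65.6 ± 0.426 TPM in Fzd5KO and 40.2 ± 1.97 TPM in Ctrl at day 3 (log2 change 0.69). Slc5a11, the inositol cotransporter SMIT2, changed by -0.49 and 0.49 on the 2 days. Slc2a9 encodes GLUT9, a urate transporter, and averaged 41.6 ± 2.84 TPM in Fzd5KO day 3 and 20.3 ± 2.12 TPM in Ctrl day 3 (log2 change 1.0), with no call at day 1 (-0.12). The exception was Slc50a1, which encodes SWEET1, with 15.4 ± 1.46 TPM in Fzd5KO day 3 and 22.96 ± 2.46 TPM in Ctrl day 3 (log2 change -0.55 ± 0.13, adjusted p = 0.00283). Slc5a3, the inositol cotransporter SMIT1 (-0.26), and Slc37a1 (0.21) were not called at day 3, though Slc37a1 was called higher under median-of-ratios scaling (0.36). The glucose cotransporter relative Slc5a9, Slc37a3 and the glucose-6-phosphate transporter Slc37a4 were called higher at day 3 (0.32, 0.28 and 0.13). The call of Slc37a4 was lost under quantile normalization (0.06) and with rescaled TPM (0.05), and that of Slc37a3 with rescaled TPM (0.21). Under the other scalings 6 to 9 sugar transporters were higher and 1 lower at day 3.

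The 25 amino acid and peptide transporters were divided at day 3, with 9 higher and 10 lower and a median of -0.06, which lay at 0.07 under median-of-ratios scaling and -0.14 with rescaled TPM. The 10 falls among 25 members were near the share of all tested genes called lower on that day (38.5%). The share called higher was 24.3%. At day 1, 2 were higher and 13 lower, against 3 and 10 under quantile normalization, 4 and 10 under median-of-ratios scaling and 4 and 12 with rescaled TPM. Among those that rose at day 3 were abundant carriers. Slc6a8 encodes the creatine transporter and had 521, 535 and 521 TPM in Fzd5KO day 3, against 195, 194 and 179 TPM in Ctrl day 3 (log2 change 1.47 ± 0.043, adjusted p = 2.43e-10). At day 1 its groups overlapped, at 254 ± 2.17 TPM in Fzd5KO and 256 ± 13.3 TPM in Ctrl. Slc43a2 encodes LAT4, a basolateral exit route for neutral amino acids. It had 318, 335 and 329 TPM in Fzd5KO day 3 and 151, 153 and 141 TPM in Ctrl day 3, and 198, 197 and 189.8 TPM in Fzd5KO day 1 and 227, 247 and 238 TPM in Ctrl day 1. The knockout was thus above the control at day 3 (log2 change 1.14 ± 0.043, adjusted p = 1.61e-09) and below it at day 1 (log2 change -0.28 ± 0.043, adjusted p = 0.00117).

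Slc7a15, Slc16a10, Slc6a20a and Slc6a4 shared that reversal. Slc7a15 encodes an aromatic-preferring amino acid transporter and changed by -0.46 at day 1 and 0.79 at day 3. Slc16a10 encodes TAT1, a basolateral carrier of aromatic amino acids, and changed by -0.38 and 0.66. Slc6a20a encodes the imino acid transporter SIT1, with -0.55 at day 1 and 0.25 at day 3, where the call was lost under quantile normalization (0.06). Of its 50-base stretches, 15.3% also occur in other transcripts, mainly those of Slc6a20b, and the gene overlaps Ccr9 on the opposite strand. Slc6a4 encodes the serotonin transporter, at 31.1 ± 2.27 TPM in Fzd5KO and 38.5 ± 0.571 TPM in Ctrl at day 1 (log2 change -0.30, a call lost under median-of-ratios scaling) and 44.2 ± 1.69 TPM in Fzd5KO and 27.7 ± 1.5 TPM in Ctrl at day 3 (log2 change 0.66).

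Slc6a3, the dopamine transporter, was scarce in 3 groups and stood out in the fourth. It had 9.8, 10.9 and 10.4 TPM in Fzd5KO day 3, against 1.9, 2.47 and 2.14 TPM in Ctrl day 3, and 1.94, 2.05 and 2.45 TPM in Fzd5KO day 1, against 1.32, 1.39 and 1.48 TPM in Ctrl day 1. It reached 5 TPM in the 3 libraries of Fzd5KO day 3 alone, so the TPM bound admitted it through its high group, and its log2 change of 1.85 at day 3 is a description. The smaller rise at day 1 (0.39) lost its call without Fzd5KO day 1 replicate 3 (0.32).

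The 2 largest falls of day 3 were those of amino acid carriers. Slc6a7, the proline transporter known from the brain, had 3.19, 3.56 and 3.02 TPM in Fzd5KO day 3, against 10.5, 8.98 and 8.44 TPM in Ctrl day 3 (log2 change -1.27). At day 1 it had 4.02, 4.5 and 4.57 TPM in Fzd5KO and 6, 6.1 and 5.94 TPM in Ctrl (-0.39). Slc6a7 and Slc7a6 reached 5 TPM in the 6 Ctrl libraries alone, so the TPM bound admitted them through the groups where they are high, and their falls are a description. Slc1a3 encodes the glutamate transporter GLAST (chromosome 15, 8634124 to 8710764, minus strand). It had 8.01, 8.17 and 7.77 TPM in Fzd5KO day 1, against 4.23, 4.06 and 4.09 TPM in Ctrl day 1, and 4.04, 4.5 and 5.44 TPM in Fzd5KO day 3, against 12.04, 11.3 and 11.2 TPM in Ctrl day 3. The knockout was the higher group at day 1 (log2 change 0.81 ± 0.084) and the lower one at day 3 (log2 change -1.15 ± 0.084). No other member was called in that order, while the other scalings gave 2 or 3 such members, Slc1a3 among them. Slc1a3 reached 5 TPM in Fzd5KO day 1 and Ctrl day 3, and in Fzd5KO day 3 replicate 3 (5.44 TPM). The TPM bound thus admitted it through the groups where it is high, and its changes are a description.

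Slc1a5, Slc7a1, Slc7a5 and Slc38a2 encode ASCT2, a carrier of glutamine and other neutral amino acids, CAT1, a carrier of cationic amino acids, LAT1, an exchanger of large neutral amino acids, and SNAT2, a sodium-coupled carrier of neutral amino acids. They are named after their values were seen, among falls that took in 38.5% of all tested genes at day 3. Their log2 changes on that day were -0.80, -0.50, -0.43 and -0.27, each called, though the call of Slc7a5 was lost under quantile normalization (-0.17). Slc38a1, which encodes SNAT1, a glutamine carrier, was not called (-0.06). Slc1a5 had 25.4, 32.3 and 29.7 TPM in Fzd5KO day 3, against 57.6, 52.4 and 44.9 TPM in Ctrl day 3. At day 1 its change of -0.35 was called, but the call was lost without any single library of that day except Ctrl day 1 replicate 3, and under each of the other scalings. Slc7a6, the exchanger y+LAT2, changed by -0.74 and -0.73 on the 2 days, and Slc7a4 was lower on both (-0.51 and -0.56). Slc6a9, the glycine transporter GlyT1, had 5.5 ± 0.715 TPM in Fzd5KO day 3 and 8.54 ± 0.356 TPM in Ctrl day 3 (-0.56). Slc15a4, a lysosomal carrier of histidine and peptides, varied within groups, with 8.39, 12.2 and 14.1 TPM in Fzd5KO day 3 and 23.04, 18.1 and 23.9 TPM in Ctrl day 3 (log2 change -0.87 ± 0.27, adjusted p = 0.0161). Its call was lost without Fzd5KO day 3 replicate 1 (-0.67) or Ctrl day 3 replicate 3 (-0.80), and it overlaps Glt1d1 on the opposite strand. Among the other Slc38 genes, Slc38a10 was higher at day 3 (0.58), and Slc38a1, Slc38a6, Slc38a7 and Slc38a9 lay between -0.10 and 0.04 and were not called. The taurine transporter Slc6a6, among the 10 most abundant members, was not called at day 3, at 148 ± 1.18 TPM in Fzd5KO and 146 ± 9.31 TPM in Ctrl (0.02 ± 0.056). Its change was called lower, at -0.21, under quantile normalization and higher, at 0.16, under median-of-ratios scaling.

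**Figure D3:**
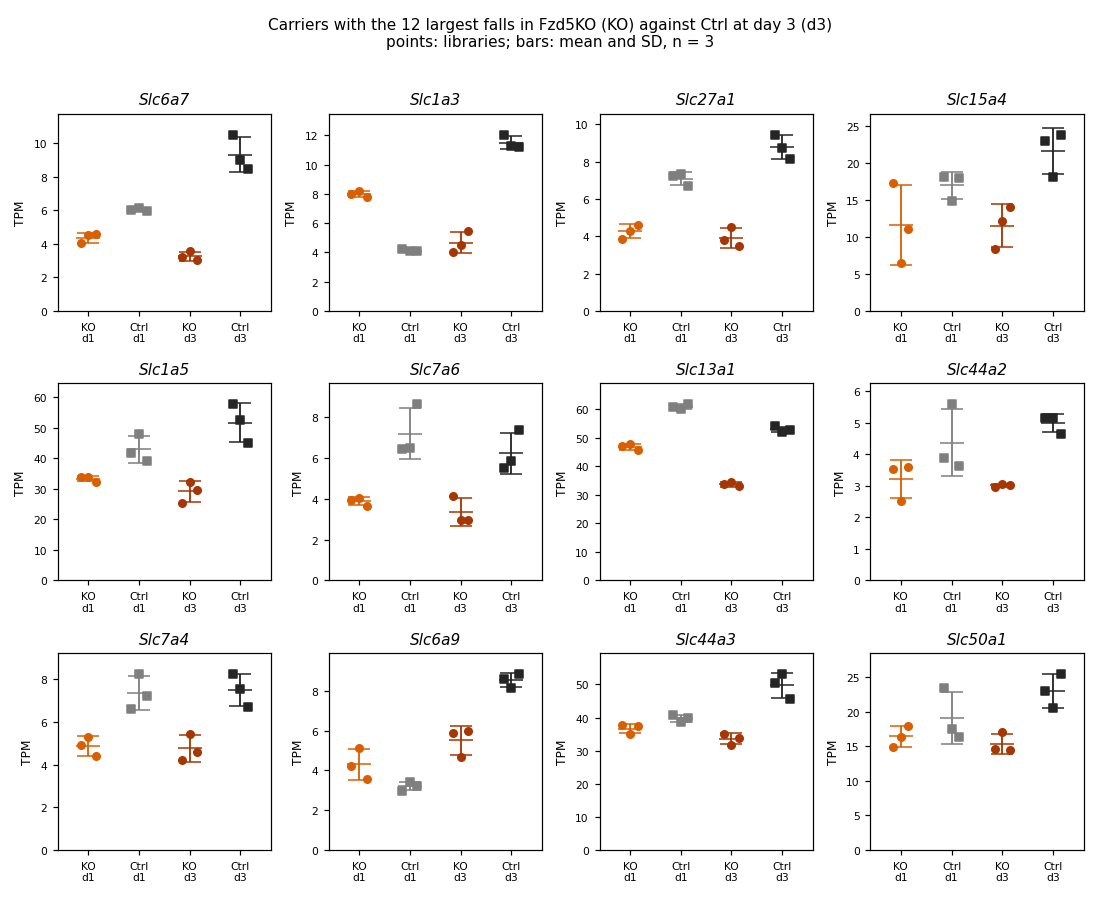
TPM of the 12 carriers with the largest falls in Fzd5KO (KO) against Ctrl at day 3 (d3), with day 1 (d1) beside it. Points are libraries and bars are the mean and SD of 3 libraries. In each panel the 3 knockout libraries of day 3 lie below the 3 control libraries of that day, and Slc1a3 has the opposite order at day 1 (7.98 against 4.13 TPM).

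Slc15a2 had the largest change of any member at day 1. It encodes PEPT2, a high-affinity proton-coupled peptide transporter (chromosome 16, 36750177 to 36784962, minus strand). Its values were 0.44, 0.49 and 0.5 TPM in Fzd5KO day 1, against 4.52, 4.27 and 3.92 TPM in Ctrl day 1 (log2 change -1.83 ± 0.14, adjusted p = 1.24e-05). At day 3 it had 8.45, 8.9 and 6.28 TPM in Fzd5KO and 11.8, 8.48 and 8.13 TPM in Ctrl. The 3 knockout libraries of day 1 were below 1 TPM, the groups overlapped at day 3, and the day 3 change of -0.23 was not called (adjusted p = 0.172). The TPM bound admitted Slc15a2 through the day 3 libraries alone.

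Of the 14 vitamin and choline transporters, 9 were higher and 4 lower at day 3, and 1 was higher and 6 lower at day 1, or 1 and 2 under each of the other scalings. Slc23a1 encodes SVCT1, the sodium-coupled ascorbate transporter, and Slc23a4 a relative that carries nucleobases in the rat. Slc23a4 had 59.7, 59.1 and 62.2 TPM in Fzd5KO day 1, against 36.9, 38.4 and 37.5 TPM in Ctrl day 1, and 105, 111 and 106 TPM in Fzd5KO day 3, against 41.4, 42.9 and 40.7 TPM in Ctrl day 3. Knockout libraries were the higher ones on both days (log2 change 0.67 ± 0.037, adjusted p = 9.07e-07 at day 1 and log2 change 1.34 ± 0.037, adjusted p = 1.54e-10 at day 3). Slc23a1 had 38.2, 35.4 and 38.3 TPM in Fzd5KO day 1, against 50.4, 54 and 48.9 TPM in Ctrl day 1, and 54.9, 56.5 and 54.4 TPM in Fzd5KO day 3, against 21.8, 21.4 and 20.3 TPM in Ctrl day 3. It was lower in the knockout at day 1 (-0.44) and higher at day 3 (1.34), so the pair moved in opposite directions at day 1 and in the same direction at day 3.

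Slc5a6 encodes SMVT, the sodium-dependent carrier of biotin and pantothenate. It had 10.7, 11.98 and 10.2 TPM in Fzd5KO day 1 and 20.7, 19.1 and 17.9 TPM in Ctrl day 1, and 20.9, 24.2 and 22.4 TPM in Fzd5KO day 3 and 10.04, 9.02 and 9.53 TPM in Ctrl day 3. Its groups did not overlap and changed places between the days (-0.76 and 1.16); it overlaps Atraid on the opposite strand, and 13.6% of its 50-base stretches occur in other transcripts. Slc46a1, the proton-coupled folate transporter, averaged 112 ± 3.3 TPM in Fzd5KO day 3 and 59.9 ± 1.38 TPM in Ctrl day 3 (log2 change 0.89). Slc19a1, the reduced folate carrier, was called lower on both days (-0.34 and -0.34), of which the day 1 call was lost under each of the other scalings and the day 3 call under quantile normalization and median-of-ratios scaling, and the thiamine transporter Slc19a2 was lower at day 3 (-0.38). Among the choline transporter-like genes, Slc44a4 was higher at day 3 (0.77), while Slc44a3 (-0.55) and Slc44a2 (-0.57) were lower; the call of Slc44a2 was lost under quantile normalization (-0.31), and the gene reached 5 TPM in 3 Ctrl libraries alone. Slc44a1 was not called at day 3 (-0.01). It was called lower under quantile normalization (-0.16) and with rescaled TPM (-0.09), and higher under median-of-ratios scaling (0.13). The riboflavin transporters Slc52a2 and Slc52a3 were higher at day 3 (0.33 and 0.48), and the ascorbate transporter Slc23a2 was too (0.35). Slc46a3, a lysosomal relative of the folate transporter, had 48.4 ± 2.64 TPM in Fzd5KO day 3 and 23.8 ± 1.99 TPM in Ctrl day 3 (0.99).

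All 4 members of the phosphate, calcium and magnesium group were higher at day 3, with a median of 0.87, and the direction held under the other scalings. Slc20a1 encodes the phosphate transporter PiT-1 and had 58.5, 56.4 and 60.8 TPM in Fzd5KO day 3, against 17.1, 15.7 and 16.8 TPM in Ctrl day 3 (log2 change 1.77 ± 0.067, adjusted p = 1.67e-09). At day 1 its groups overlapped, at 33.1 ± 1.45 TPM in Fzd5KO and 33.6 ± 3.28 TPM in Ctrl. Slc34a2 encodes NaPi-IIb, the brush border sodium/phosphate cotransporter. It had 81.9, 71.2 and 69.6 TPM in Fzd5KO day 1, against 60.9, 56.4 and 57.5 TPM in Ctrl day 1, and 130.1, 138 and 131 TPM in Fzd5KO day 3, against 87.1, 81.2 and 83.7 TPM in Ctrl day 3. Knockout libraries were higher on both days (0.34 and 0.66). The magnesium transporter Slc41a2 averaged 57.3 ± 1.45 TPM in Fzd5KO day 3 and 26.8 ± 4.64 TPM in Ctrl day 3 (1.08). Slc20a2, which encodes PiT-2, changed by 0.29 at day 3, and its call was lost without Fzd5KO day 3 replicate 2 (0.23) or Ctrl day 3 replicate 3 (0.26).

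The 13 proton, bicarbonate, chloride and anion exchangers were less one-sided. At day 3, 5 were higher, 2 were lower and 6 were not called, and with rescaled TPM 5 were called in each direction. At day 1, 0 were higher and 8 lower, or 0 and 3 under each of the other scalings. Slc9a2 encodes the sodium/proton exchanger NHE2 and had 77.1, 79.6 and 77.95 TPM in Fzd5KO day 3, against 31.2, 31.9 and 30.3 TPM in Ctrl day 3 (log2 change 1.30 ± 0.033, adjusted p = 9.07e-11). At day 1 it had 35.99 ± 0.356 TPM in Fzd5KO and 40.7 ± 0.195 TPM in Ctrl (-0.17, a call lost under each of the other scalings). The sulfate transporter Slc26a2 fell at day 1 (-0.43) and rose at day 3 (0.67), with 91.2 ± 1.66 TPM in Fzd5KO and 56.9 ± 1.97 TPM in Ctrl on the later day. The bicarbonate cotransporters split: Slc4a4, which encodes NBCe1, rose at day 3 (0.62), as did Slc4a7, which encodes NBCn1 (0.60), while Slc4a5, which encodes NBCe2, fell (-0.49). Slc12a8 was lower on both days (-0.59 and -0.39). The potassium/chloride cotransporter Slc12a7 was not called at day 3 (0.08). It was called lower, at -0.15, under quantile normalization and higher, at 0.22, under median-of-ratios scaling. Not called at day 3 were its relative Slc12a9 (-0.16), the anion exchanger Slc4a2 (0.09) and the sodium/proton exchanger Slc9a8 (-0.01). Slc12a9 was called lower with rescaled TPM (-0.23), and Slc4a2 higher under median-of-ratios scaling (0.23).

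Among the 4 fatty acid and acetyl-CoA transporters, 2 were higher and 1 lower at day 3, or 2 and 2 under quantile normalization and with rescaled TPM. Slc27a4 encodes FATP4, the main fatty acid transport protein of the enterocyte. It had 502, 539 and 507 TPM in Fzd5KO day 3, against 233, 246 and 226 TPM in Ctrl day 3 (log2 change 1.13 ± 0.046, adjusted p = 2.59e-09). Slc27a1, which encodes FATP1, had 3.81, 4.51 and 3.47 TPM in Fzd5KO day 3, against 9.45, 8.76 and 8.17 TPM in Ctrl day 3 (log2 change -0.99), and changed by -0.62 at day 1. It reached 5 TPM in the 6 Ctrl libraries alone, so the bound admitted it through the groups where it is high, and its falls are a description. At day 1 Slc27a4 was not called (-0.08). Slc27a2, which encodes the very long-chain acyl-CoA synthetase FATP2, was lower at day 1 (-0.31), a call lost under median-of-ratios scaling (-0.15). At day 3 it was not called (-0.10), but was called lower under quantile normalization (-0.23) and with rescaled TPM (-0.17). Slc33a1, the acetyl-CoA transporter of the endoplasmic reticulum, changed by -0.17 at day 1 and 0.53 at day 3. Its day 1 call was lost under each of the other scalings (-0.01 to -0.06).

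In the Slc35 family of nucleotide sugar transporters and relatives, 13 of 20 members were higher and 3 lower at day 3, with a median of 0.40. At day 1, 0 were higher and 4 lower, and 0 of the 20 were called under any of the 3 other scalings. Slc35a5 had the largest change, at 49.8, 47.1 and 54.2 TPM in Fzd5KO day 3 and 24.8, 23.6 and 25.4 TPM in Ctrl day 3 (log2 change 1.0 ± 0.056, adjusted p = 3.99e-08). Slc35b1, an ATP/ADP exchanger of the endoplasmic reticulum, averaged 155 ± 4.72 TPM in Fzd5KO day 3 and 97.03 ± 3.33 TPM in Ctrl day 3 (0.67). Slc35d1, Slc35c1, Slc35a3 and Slc35a2, the carriers of UDP-glucuronic acid, GDP-fucose, UDP-N-acetylglucosamine and UDP-galactose, changed by 0.82, 0.37, 0.28 and 0.26 at day 3. The call of Slc35a3 was lost under quantile normalization, and that of Slc35a2 also with rescaled TPM. Slc35c2, Slc35d2, Slc35e1, Slc35e2, Slc35f5, Slc35f6 and Slc35g1 rose by 0.42 to 0.85 at day 3. Slc35a4, Slc35b3, Slc35e3 and Slc35f2 lay between 0.02 and 0.21 and were not called. Under median-of-ratios scaling Slc35a4 (0.35), Slc35e3 (0.26) and Slc35f2 (0.20) were called higher, and Slc35e3 also under quantile normalization (0.39). The 3 that fell were Slc35a1, the CMP-sialic acid transporter (-0.52), Slc35b2, which carries the sulfate donor PAPS (-0.36), and Slc35b4 (-0.36), whose call was lost under quantile normalization and median-of-ratios scaling. Slc35b4 reached 5 TPM in all libraries of Ctrl day 3, in Ctrl day 1 replicate 3 and in Fzd5KO day 3 replicate 2. The TPM bound thus admitted it through the group where it is high, and its fall is a description.

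Of the 10 organic cation, anion and steroid transporters, 6 were higher and 2 lower at day 3, and 0 were higher and 3 lower at day 1, or 0 and 1 under each of the other scalings. Slc22a5 encodes the carnitine transporter OCTN2 and had 72.6, 82.4 and 70.4 TPM in Fzd5KO day 3, against 35.3, 39 and 41.5 TPM in Ctrl day 3 (log2 change 0.94 ± 0.0701, adjusted p = 4.23e-07). Of its 50-base stretches, 26.3% also occur in other transcripts, mainly those of Slc22a21, which was not called on either day (-0.17 and -0.05). The neighbouring ergothioneine transporter Slc22a4, or OCTN1, was higher as well (0.63). Slc10a7 was lower at day 3 (-0.38), a call lost under quantile normalization (-0.21) and median-of-ratios scaling (-0.24). Slc10a3, Slc22a18 and Slc22a23 rose at day 3 (0.54, 0.42 and 0.46), and Slc10a5 was called only at day 1, as lower (-0.33). With rescaled TPM Slc10a5 was called lower at day 3 too (-0.17). Slc47a1, the exporter MATE1, changed by -0.30 at day 1 and 0.33 at day 3. Its day 1 call was lost under each of the other scalings (-0.14 to -0.18).

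The copper transporter Slc31a1, or CTR1, fell at day 1 (-0.26) and rose at day 3 (0.37), with 58.8 ± 0.236 TPM in Fzd5KO and 45.3 ± 1.89 TPM in Ctrl on the later day. Slc49a4 rose at day 3 (0.56). Of the 4 vesicular and lysosomal carriers, the sialic acid exporter Slc17a5 rose (0.32) and the anion transporter Slc17a4 fell (-0.17) at day 3. The call of Slc17a4 was lost under median-of-ratios scaling (-0.03) and without Fzd5KO day 3 replicate 1 (-0.16), Fzd5KO day 3 replicate 3 (-0.13) or Ctrl day 3 replicate 1 (-0.13). The vesicular monoamine transporter Slc18a1 (0.30) and the polyamine transporter Slc18b1 (-0.17) were not called. Slc18a1 was called higher under quantile normalization (0.51) and median-of-ratios scaling (0.42), with only the groups compared, and without Fzd5KO day 1 replicate 2, Fzd5KO day 1 replicate 3 or Ctrl day 3 replicate 1 (0.37). Slc18b1 was called lower with rescaled TPM (-0.24). Slc28a3, the concentrative nucleoside transporter CNT3, was not called on either day (0.13 and -0.10). At day 1 it was called higher under each of the other scalings (0.24 to 0.28), and at day 3 it was called lower with rescaled TPM (-0.18).

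Slc9a3r1, Slc4a1ap, Slc7a6os and Slc2a4rg-ps match the naming rule and encode no carrier. Slc9a3r1 encodes NHERF1, a scaffold that ties transporters of the brush border to ezrin, and was the most abundant of the 121. It had 576, 606 and 587 TPM in Fzd5KO day 3, against 247, 243 and 230.2 TPM in Ctrl day 3 (log2 change 1.29 ± 0.038, adjusted p = 2.47e-10), and 377 ± 5.2 TPM in Fzd5KO and 405 ± 16.5 TPM in Ctrl at day 1, where it was not called. Slc7a6os (-0.38) and the pseudogene Slc2a4rg-ps (-0.46) were lower at day 3, though the call of the pseudogene was lost under quantile normalization (-0.20).

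The genotype effect differed between the days for most members. The test of the difference itself called 75 members with a more positive effect at day 3 and 12 with a more negative one, with a median of 0.40 against 0.01 over all genes. Over all tested genes, 25.3% were called in the positive and 19.1% in the negative direction. Among genes of any name at the same TPM bound, the shares were 30.9% and 22.4%. Rescaled TPM gave 59 and 19 members. The count of 12 was 7 without Fzd5KO day 3 replicate 1, Ctrl day 3 replicate 1 or Ctrl day 3 replicate 2. The largest positive differences were those of Slc2a7 (2.87 ± 0.11), Slc5a12 (2.53 ± 0.0596), Slc13a2 (2.49 ± 0.081), Slc5a4a (2.11 ± 0.064), Slc36a1 (2.10 ± 0.11) and Slc5a6 (1.91 ± 0.11). The largest negative one was that of Slc1a3 (-1.96 ± 0.12), followed by Slc6a7 (-0.88 ± 0.12) and Slc6a9 (-0.88 ± 0.16). The TPM bound admitted Slc1a3 and Slc6a7 through the groups where they are high, so their differences are a description.

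Joint calls on the 2 days were counted for members alone, with no share over all tested genes to set them against. Of the members, 27 were lower at day 1 and higher at day 3. This count was 14 under quantile normalization, 14 under median-of-ratios scaling and 16 with rescaled TPM, all among the 27. The 27 include Slc13a2, Slc5a12, Slc5a8, Slc5a4a, Slc5a4b, Slc23a1 and Slc5a6. Another 34 were called at day 3 alone as higher, among them Slc6a8, Slc27a4, Slc36a1, Slc20a1 and Slc46a1. The 5 carriers called higher on both days were Slc16a3, Slc16a6, Slc23a4, Slc34a2 and Slc6a3. The 13 called lower on both days include Slc1a5, Slc7a1, Slc38a2, Slc6a7 and Slc27a1. That count was 8 under quantile normalization, 7 under median-of-ratios scaling and 11 with rescaled TPM, with 6, 7 and 8 of them among the 13. Another 17 were called on neither day, with Slc6a6 the most abundant of them. The 2 days' comparisons share no library, and across the 121 members their effects had a Pearson's r of 0.08 and a Spearman's rho of 0.17, a description across genes, which are not independent replicates.

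Set against day 1, day 3 was higher for most carriers in the knockout and mixed in the control. These comparisons use the same libraries as those of the genotypes and are given beside them as values. In Fzd5KO, 88 members were higher and 5 lower at day 3 than at day 1, with a median of 0.46 against 0.11 over all genes, and 34.4% of all tested genes were called higher and 10.5% lower. In Ctrl, 30 were higher and 34 lower, with a median of 0.05, and the shares of all tested genes were 25.0% and 11.0%. Among genes of any name at the same TPM bound, the shares were 43.6% and 12.4% in Fzd5KO and 31.2% and 12.7% in Ctrl. The control split became 20 against 41 under quantile normalization and 18 against 43 under median-of-ratios scaling. The members called lower in the knockout were Slc1a3, Slc13a1, Slc7a5, Slc6a7 and Slc4a5. Under the other scalings they numbered 10 or 11, and the call of Slc4a5 was lost in 7 of the 22 alternatives.

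Joint calls in the 2 genotypes were likewise counted for members alone, with no share over all tested genes beside them. There were 32 members that were higher at day 3 in Fzd5KO and lower at day 3 in Ctrl. Slc13a2 was one, at 1.09 in Fzd5KO and -1.40 in Ctrl. Slc2a7 (0.70 in Fzd5KO and -2.17 in Ctrl), Slc36a1 (0.82 in Fzd5KO and -1.29 in Ctrl), Slc5a12 (0.68 in Fzd5KO and -1.85 in Ctrl) and Slc23a1 (0.56 in Fzd5KO and -1.23 in Ctrl) were others. In these 5 the difference within the control was the larger in size, by values alone. For Slc5a8 (1.32 in Fzd5KO and -0.39 in Ctrl), Slc9a2 (1.1 in Fzd5KO and -0.38 in Ctrl) and Slc6a8 (1.04 in Fzd5KO and -0.43 in Ctrl) the larger difference was in the knockout. The largest rise of all in the knockout was that of Slc15a2 (2.58), which was also higher at day 3 in Ctrl (0.98). Slc15a2 reached 5 TPM in the 6 day 3 libraries alone. The TPM bound thus admitted it through the groups where it is high, and its rises are a description. Slc17a4 was higher at day 3 in both genotypes (0.71 in Fzd5KO and 0.71 in Ctrl). Slc1a3 (-0.67 in Fzd5KO and 1.29 in Ctrl), Slc6a7 (-0.33 in Fzd5KO and 0.55 in Ctrl) and Slc4a5 (-0.24 in Fzd5KO and 0.25 in Ctrl) were the 3 that were lower at day 3 in Fzd5KO and higher in Ctrl. For Slc1a3, admitted by the TPM bound through its high groups, these values are a description.

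**Figure D4:**
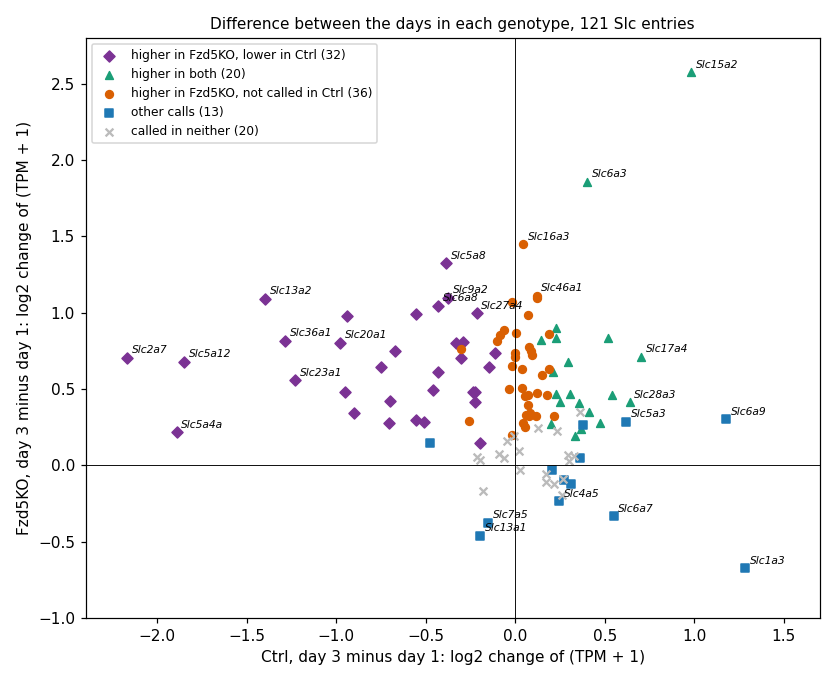
Log2 change of (TPM + 1), day 3 minus day 1, in Fzd5KO (vertical axis) against Ctrl (horizontal axis). Each point is 1 of the 121 Slc entries, marked by its calls, and most lie above 0 on the vertical axis. The 32 carriers higher in Fzd5KO and lower in Ctrl stretch left as far as Slc2a7 (-2.17 in Ctrl), and Slc1a3 lies opposite, at -0.67 in Fzd5KO and 1.29 in Ctrl.

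In 13 families, Slc2 among them through the pseudogene alone, members were called in opposite directions at day 3. Beside Slc13a2 and Slc13a1 and beside Slc27a4 and Slc27a1, the widest such pair was Slc6a3 (1.85) and Slc6a7 (-1.27), which lay 3.12 apart on the log2 scale. Slc16a3 and Slc16a13 lay 2.12 apart. The pairs Slc7a15 and Slc7a6 (1.52), Slc35a5 and Slc35a1 (1.52) and Slc44a4 and Slc44a2 (1.34) were closer. The TPM bound admitted Slc6a3, Slc6a7, Slc7a6, Slc27a1 and Slc44a2 through the groups where they are high, so the distances of their pairs are a description. The member of the pair that rose was the more abundant in Fzd5KO day 3 in each of these 7 families. Choosing pairs by their change at day 3 favours this order. In the Slc17 pair, outside these 7 families, the member that fell was the more abundant in Fzd5KO day 3 (Slc17a4 at 34.6 TPM, Slc17a5 at 17.3 TPM).

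Proteins that partner with the carriers or drive them were counted from a list. Of 19 tested partners and drivers, 13 were higher and 4 lower at day 3, and 1 was higher and 13 lower at day 1. Atp1b1, a subunit of the sodium pump, rose at day 3 (log2 change 1.07), with 1270 TPM in Fzd5KO and 604.7 TPM in Ctrl. Ezr, which encodes ezrin, and Pdzk1, a scaffold for brush border carriers, rose at day 3 too (1.31 and 0.80), as did Anpep (1.45), an aminopeptidase of the brush border. Atp1b3 (-0.47), Wnk1 (-0.44), Stk39 (-0.39) and Cftr (-0.25) fell. Bsg, the partner of MCT1 and MCT4, was not called on either day (-0.07 and 0.10). Of 22 ABC transporters, 13 were higher and 4 lower at day 3, and 0 were higher and 11 lower at day 1. The absorption and ion carriers that the naming rule left out gave 19 higher and 3 lower of 24 at day 3. The mitochondrial carriers of Slc25 gave 19 higher and 6 lower of 37, and the zinc transporters 14 higher and 3 lower of 21.

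Markers of the cell types of the epithelium differed between the genotypes in these libraries. Of 10 pan-epithelial markers, 8 were higher and 1 was lower at day 3, and 3 were higher and 1 was lower at day 1. Of 20 enterocyte markers, 17 were higher and 1 was lower at day 3, and 6 were higher and 10 lower at day 1. Of 12 proliferation genes 0 were higher and 12 lower at day 3, and of 10 crypt-base stem cell markers 0 were higher and 10 lower on both days. All 10 Paneth and all 10 goblet cell markers were lower at day 3, with sums of 4867 to 5280 TPM in Fzd5KO and 14560 to 15510 TPM in Ctrl for the Paneth cell markers and of 5988 to 6454 TPM in Fzd5KO and 9770 to 10370 TPM in Ctrl for the goblet cell markers. Of 12 enteroendocrine markers 10 were lower at day 3, and of 8 tuft cell markers 7. The stem cell markers summed to 106 to 112 TPM in Fzd5KO day 3, against 696 to 742 TPM in Ctrl day 3, and to 160 to 166 TPM in Fzd5KO day 1, against 478 to 499 TPM in Ctrl day 1. All 11 tested T cell markers were higher at day 3, with sums of 204 to 228 TPM in Fzd5KO and 50.6 to 56.6 TPM in Ctrl. B and plasma cell markers were higher for 8 of 9 (252 to 292 TPM in Fzd5KO and 136 to 148 TPM in Ctrl, with Tnfrsf17 at 0 in every library), and myeloid markers for 7 of 8 (41.5 to 44.7 TPM in Fzd5KO and 13.7 to 19.2 TPM in Ctrl). At day 1 the T cell sums were 144 to 169 TPM in Fzd5KO and 218 to 243 TPM in Ctrl. The B and plasma cell sums were 109 to 115 TPM in Fzd5KO and 134 to 151 TPM in Ctrl on that day, and the myeloid sums 16.6 to 18.9 TPM in Fzd5KO and 22.8 to 24.9 TPM in Ctrl. Of 7 fibroblast markers 0 were called at day 3, and of 2 endothelial markers 2 were higher. Erythroid markers ran the other way at day 3, with 0 of 5 higher and 5 lower and sums of 54.4 to 69.5 TPM in Fzd5KO and 201 to 228 TPM in Ctrl. The part of these markers' cells in the carrier values was not tested.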

How the data were processed

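Bulk RNA-seq of 12 libraries, 4 groups of 3, was analysed. The authors deposited 1 table of TPM values per gene and library, made from TruSeq Stranded Total RNA libraries per the labels' protocols, with bcl2fastq 2.18, STAR 2.7.3a, RSEM and mm10 named in the submitters' processing notes. The annotation, the RSEM version and the strand setting are not stated there. TPM shares 1 total per library, so a large change in some genes shifts all others, and depth is unknown. Here log2(TPM + 1) was fitted with limma 3.58.1 in R 4.3.3 (4 group means, empirical Bayes with trend, 8 residual degrees of freedom) for genes with 1 TPM or more in 3 libraries or more, 14510 in all. P-values were two-sided and adjusted by Benjamini-Hochberg over these genes, with calls under 0.05, and the steps were tested on simulated data. Members, roles and marker lists were chosen with earlier results of these data known.

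The genes named are the 12 largest called rises and falls of each genotype comparison, the 6 largest in each direction of the other comparisons, the 10 most abundant members, the 4 with the smallest p in each role, those nearest the TPM bound and the most distant opposed pair of each family. All other members named were added to complete the roles, after their values were seen. Some members and partner genes were counted and are not reported here by name. Coordinates come from GENCODE's GRCm38 annotation, in which all 121 gene IDs were found, and promoters from RefSeq. Of the members, 18 overlap a gene of at least 1 TPM on the opposite strand. Alternatives changed the pseudocount, the filter, the scaling, the trend, the libraries in the fit, the replicate block and the member rule, and left out each library in turn. Figures were drawn with matplotlib 3.10.9.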

Additional observations from a re-analysis of the deposited data

Results flagged for a closer look

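The genotype effect, Fzd5KO minus Ctrl, differed between day 3 and day 1 by the limma test of the difference for 75 carriers with a more positive effect at day 3 and 12 with a more negative one. For Slc2a7 the difference was 2.87 on the log2 scale, for Slc5a12 2.53, for Slc13a2 2.49, for Slc5a4a 2.11, for Slc36a1 2.10 and for Slc5a6 1.91. In the negative direction Slc1a3 differed by -1.96, Slc6a7 by -0.88, Slc6a9 by -0.88, Slc4a5 by -0.48, Slc1a5 by -0.45 and Slc44a3 by -0.43. Slc1a3 and Slc6a7 passed the TPM bound through the groups where they are high, so their values are a description. The call of Slc1a5 was lost with no filter on low values and without any single one of 7 of the 12 libraries.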

How the results depend on the processing

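Of 2914 alternative values for 133 results of 77 named carriers, 2829 kept their direction and side of the threshold, 66 lost a call (17 results), 13 gained one and 6 reversed. At day 1, the 6 carriers called higher became 10 under median-of-ratios scaling and 10 with rescaled TPM, and the 49 called lower became 26 under quantile normalization, 25 under median-of-ratios scaling and 29 with rescaled TPM. Reversals at day 1 were Slc12a7 (0.001 under median-of-ratios scaling), Slc35b1 (0.035, same scaling) and Slc6a8 (0.157, same scaling, and 0.112 with rescaled TPM), and at day 3 Slc12a7 (-0.153) and Slc6a6 (-0.213) under quantile normalization. For the difference between days, the 12 lower became 7 with no filter and 19 with rescaled TPM, and ranged from 7 to 12 with 1 library left out, with 7 without Fzd5KO day 3 replicate 1, Ctrl day 3 replicate 1 or Ctrl day 3 replicate 2. The 5 lower at day 3 in Fzd5KO became 10 under quantile normalization, 10 under median-of-ratios scaling and 11 with rescaled TPM, and the 30 higher at day 3 in Ctrl became 18 under median-of-ratios scaling. The cause was not tested. Counts at day 3 stayed at 63 to 68 higher and 27 to 31 lower with 1 library left out. Replicate numbers did not pair the libraries, with correlations of -0.07 to 0.09 between libraries of the same number. With the replicate block, 6 were higher and 51 lower at day 1, 67 and 29 at day 3, and 75 and 10 for the difference. A fit of only the groups compared was not applicable to the difference between days. Depth limits cannot be given from TPM.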
